A study of Mus musculus with 4 samples.

Results

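Vomeronasal receptor genes are the mouse genes whose symbols begin with Vmn1r or Vmn2r, and the variants described here are the single-nucleotide variants (SNVs) and indels that lay inside the bodies of those genes on the autosomes. A variant was a member when freeBayes, run in SpeedSeq, and VarScan2 both listed it at the same position with the same alleles. Each caller had to show a minimum depth of 10 reads, with 3 or more reads carrying the variant and a variant allele fraction (variant reads over depth) of 0.10 or higher, and the SpeedSeq quality score had to be at least 20. This gave 1376 member sites (1291 SNVs and 85 indels) of 58350 autosomal sites that passed the same filters (51317 SNVs and 7033 indels). The gene table held 616 vomeronasal receptor genes in all, of which 366 were Vmn1r (229 protein-coding and 137 pseudogenes) and 250 were Vmn2r (122 protein-coding and 128 pseudogenes).

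Exomes were read from c-Kit+ leukaemia cells taken from the bone marrow of moribund mice on a C57BL/6 background. All 4 samples carry the genotype label E2-KO, and by the series title this stands for Nras-G12D with Ezh2 knocked out, so every sample shares both lesions. No control sample or matched normal tissue is analysed here, and no variant is therefore called somatic or inherited. The labels do not number the animals, the replicate numbers 1 to 4 are names only, and an error or p-value over them covers only how far these samples differ, part of which may be technical.

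Vomeronasal receptors detect pheromones in the vomeronasal organ, a sense organ at the base of the nasal septum. Vmn1r genes encode receptors with a short extracellular end, read from a single coding exon, which signal through Gnai2 in the apical neurons of the organ. Vmn2r genes encode receptors with a long extracellular domain, spread over several exons, which signal through Gnao1 in the basal neurons and bind peptides and proteins. Both families form tandem arrays of close copies and pseudogenes, and marrow cells are not known to use them, so here they are read as stretches of DNA and not as expressed genes.

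The 5 sequences that follow show the variants in their DNA context, with 1 receptor gene for each pattern of sharing described further on. They are the 250 bases upstream of the gene start, read along the gene's strand from RefSeq (build GRCm38.p6), and capitals mark the bases at which a confident SNV lay. Upstream sites are outside the gene bodies and so are not members. Substitutions are counted from 1 at the 5′ end of each window, with the RefSeq base first.
Vmn2r117: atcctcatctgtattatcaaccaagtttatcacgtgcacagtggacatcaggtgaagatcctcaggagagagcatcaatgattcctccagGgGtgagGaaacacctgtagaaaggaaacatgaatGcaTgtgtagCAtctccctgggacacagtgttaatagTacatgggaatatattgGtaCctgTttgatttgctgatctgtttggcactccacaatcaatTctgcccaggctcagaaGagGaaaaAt
Vmn1r15: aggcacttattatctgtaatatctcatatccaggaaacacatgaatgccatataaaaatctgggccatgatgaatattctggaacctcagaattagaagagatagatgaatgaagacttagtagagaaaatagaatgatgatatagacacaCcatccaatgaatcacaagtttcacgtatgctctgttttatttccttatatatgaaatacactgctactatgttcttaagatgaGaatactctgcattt
Vmn1r193: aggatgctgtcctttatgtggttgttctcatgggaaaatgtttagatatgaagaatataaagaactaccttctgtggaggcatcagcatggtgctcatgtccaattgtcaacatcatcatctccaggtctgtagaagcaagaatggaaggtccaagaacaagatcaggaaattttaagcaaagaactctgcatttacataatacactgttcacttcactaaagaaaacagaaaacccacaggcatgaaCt
Vmn2r11: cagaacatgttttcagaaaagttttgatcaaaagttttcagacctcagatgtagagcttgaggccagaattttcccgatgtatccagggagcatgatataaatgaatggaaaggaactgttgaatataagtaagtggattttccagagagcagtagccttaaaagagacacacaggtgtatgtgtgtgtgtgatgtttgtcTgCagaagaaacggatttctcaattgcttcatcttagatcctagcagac
Vmn2r110: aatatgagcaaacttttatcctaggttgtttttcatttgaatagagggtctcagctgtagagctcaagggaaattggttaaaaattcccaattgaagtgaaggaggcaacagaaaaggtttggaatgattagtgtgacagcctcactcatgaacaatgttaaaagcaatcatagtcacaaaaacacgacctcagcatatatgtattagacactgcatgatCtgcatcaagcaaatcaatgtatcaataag
At all 50 upstream SNV sites of the 26 receptor genes that had one, the RefSeq base matched the reference base of the call.

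The Vmn2r117 window (chr17:23479598-23479847, minus strand) held 15 SNV sites, more than in the other windows printed, of which 10 were confident in all 4 replicates. It had 10, 15, 12 and 12 confident SNVs in replicates 1 to 4 at median allele fractions of 0.88, 0.67, 0.84 and 0.80. The substitutions ran from G91A to A249T and included the adjacent pair C136T and A137C. The Vmn1r15 window (chr6:57257899-57258148, plus strand) held G236C in all 4 replicates, at 1.00 in replicates 1, 2 and 4 and at 0.45 in replicate 3, and C152T as a confident SNV in replicate 3 alone, at 0.34. The Vmn1r193 window (chr13:22219821-22220070, minus strand) held C249A at 0.37 in replicate 1, 0.34 in replicate 3 and 1.00 in replicate 4, and no call in replicate 2. In the Vmn2r11 window (chr5:109059453-109059702, minus strand), T202C and C204T were called in replicates 1, 2 and 3 at 0.38, 0.41 and 0.32 and were not called in replicate 4. The Vmn2r110 window (chr17:20596260-20596509, minus strand) held C221A at 0.43 in replicate 2 alone. Across the table, 26 of 323 receptor windows (8.05%), which belong to 322 genes because Vmn2r29 has a pair of them, held a confident SNV in any sample, against a background of 0.984% of all 31396 windows, the receptor windows included. The exome capture need not cover upstream bases, and coverage of windows without a call is not recorded in these files.

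Receptor-gene SNVs numbered 840, 1068, 823 and 719 in replicates 1 to 4 (mean 862.5 ± 147, SD, n = 4), which was 2.49%, 3.36%, 2.68% and 3.38% of all autosomal SNVs. Replicate 2 had the most and replicate 4 the fewest. Indels numbered 51, 69, 48 and 31 (mean 49.75 ± 15.6, SD, n = 4) and put the samples in the same order. Vmn2r genes held most of the SNVs, with 668, 924, 669 and 525, and Vmn1r genes held 172, 144, 154 and 194. The families ordered the replicates differently: replicate 2 was highest for Vmn2r and lowest for Vmn1r, and replicate 4 the reverse.

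At least 1 SNV lay in 68, 96, 71 and 60 receptor genes in replicates 1 to 4, which was 11%, 15.6%, 11.5% and 9.74% of the 616. The background over all 46714 autosomal genes was 7.64%, 7.3%, 7.51% and 5.56%. In any sample, 114 receptor genes (18.5%) held one, against 11.2% of all genes. Among protein-coding genes the share was 12.5%, 19.4%, 13.4% and 10.8% of 351 receptor genes in replicates 1 to 4, against 12.6%, 12.2%, 12.5% and 8.8% of all coding genes, so in replicates 1 and 3 the coding receptor genes stood near the background. In any sample it was 77 coding receptor genes (21.9%) against 18.5%. By family, 66 Vmn2r genes (26.4%) and 48 Vmn1r genes (13.1%) held an SNV. Vmn2r gene bodies are longer, with a median of 16.1 kb against 0.921 kb for Vmn1r. Counted per kb of gene body, introns included, Vmn1r genes held 0.501 SNV sites and Vmn2r genes 0.202. The exome capture need not cover introns, and Vmn2r genes are spread over several exons. These values are therefore not a comparison of variant density between the families.

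The receptor genes fell into 45 clusters, a cluster being a run of such genes with gaps of at most 1 Mb between neighbours. SNVs lay in 16 of the clusters, and 9 clusters with 20 or more sites held 1230 of the 1291 SNV sites (95.3%). The other 29 clusters, with 237 genes, held no SNV. Among those without an SNV was the run of 99 Vmn1r genes on chromosome 7 (chr7:20101158-24055691) and the run of 41 Vmn2r genes further along it (chr7:84810427-87037968). The variant lists do not give the depth at positions without a call, so an absent call is not a measured reference genotype.

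**Figure D1:**
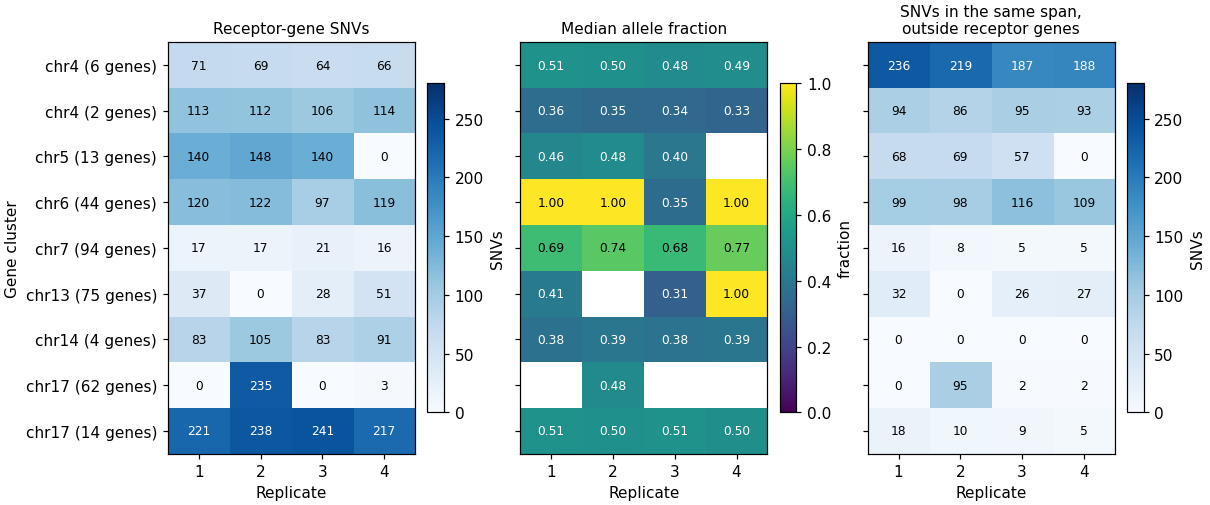
Heat maps of the 9 receptor-gene clusters with 20 or more SNV sites (rows, named by chromosome and number of receptor genes) in replicates 1 to 4 (columns): number of receptor-gene SNVs, their median allele fraction (blank under 5 SNVs) and number of SNVs in the same span outside receptor genes. The chromosome 17 cluster of 62 genes held 235 SNVs in replicate 2 and at most 3 elsewhere, the chromosome 5 cluster held none in replicate 4, and the chromosome 6 cluster had a median fraction of 0.35 in replicate 3 and 1.00 in the other 3 replicates.

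With low-MQM calls kept and multi-base alleles split, the chromosome 17 cluster of 14 Vmn2r genes (chr17:22547941-23479597) had the most sites, 278, in 5 of its genes. Its count was 34 at an MQM of 50 or more, 179 with multi-base alleles unsplit and 2 with calls within 100 bp of another left out, against 193, 227 and 141 for the chromosome 17 cluster of 62 genes. It held 221, 238, 241 and 217 SNVs in replicates 1 to 4, at median allele fractions of 0.51, 0.50, 0.51 and 0.50. The samples overlapped closely, and 192 of the sites were confident in all 4. The mean mapping quality of the variant reads (MQM, the aligner's Phred-scaled confidence in where a read belongs, which reached 60 here) had a median of 31.2, while reference reads at the same sites had 58.8. The median depth was 416 reads.

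Vmn2r115 in that cluster (chr17:23343977-23360128) had 112 SNV sites, the most of any receptor gene under the member rule, with 89, 97, 104 and 90 in replicates 1 to 4. At an MQM of 50 or more it had 14 sites, fewer than the 28 of Vmn2r-ps21. Its median allele fractions were 0.54, 0.50, 0.50 and 0.51, and 81 of its sites were confident in all 4 replicates. Its neighbour Vmn2r114 had 57, 61, 59 and 53 SNVs of 62 sites, at a median MQM of 29.7. Vmn2r117 had 53, 60, 59 and 53 of 81 sites, at a median MQM of 37.4. These 3 genes thus had calls in every sample in similar number. The sites confident in all 4 were 52 of 62 for Vmn2r114 and 42 of 81 for Vmn2r117. Vmn2r116, the receptor for the male tear peptide ESP1, had 8, 7, 5 and 7 SNVs of 8 sites, at median allele fractions of 0.29, 0.27, 0.25 and 0.25 and a median MQM of 26.7.

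Further clusters were shared by all replicates in the same way. On the end of chromosome 4, Vmn2r129 and Vmn2r125 (chr4:156331103-156355467) together held 113, 112, 106 and 114 SNVs, at median allele fractions of 0.36, 0.35, 0.34 and 0.33, a median MQM of 40.1 and a median depth of 446 reads. Vmn2r129 accounted for 74, 75, 67 and 76 of these and Vmn2r125, a pseudogene in the table, for 39, 37, 39 and 38. On chromosome 14, Vmn2r88 and Vmn2r89 (within chr14:51377298-51461293) held 83, 105, 83 and 91 SNVs at fractions of 0.38, 0.39, 0.38 and 0.39 and a median MQM of 38.6. All of the chromosome 14 sites also lay in the body of the overlapping gene Gm7247, so they cannot be assigned to a receptor gene alone. The 6-gene cluster on chromosome 4 (chr4:145701675-147521814) held 71, 69, 64 and 66 SNVs, 59.6% of whose sites lay in another gene as well. Its pseudogene Vmn2r-ps16 held 52, 49, 43 and 47 of them, at median fractions of 0.54, 0.51, 0.53 and 0.50. On chromosome 7, Vmn2r29 held 16, 14, 12 and 14 SNVs of 16 sites at 0.69, 0.78, 0.82 and 0.80, with a median MQM of 27.7 and a median depth of 27.8 reads.

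The chromosome 17 cluster of 62 genes (chr17:17703941-21323764) held 235 SNV sites in 38 of its genes. All 235 were confident in replicate 2, 3 of them also in replicate 4, and none in replicates 1 or 3. In replicates 1 and 3, neither caller listed any of the 235 positions at any quality. The median allele fraction in replicate 2 was 0.48, with the middle 50% of sites between 0.44 and 0.53. The median MQM was 59.9, and 17.9% of the sites had an MQM under 50. Leaving out replicate 2 leaves 3 sites in this cluster.

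Within that cluster Vmn2r94 had 17 SNVs in replicate 2, at fractions of 0.40 to 0.71 and a median MQM of 60, and none in replicates 1, 3 and 4. Vmn2r107, with 11 SNVs, Vmn2r108, with 10, and Vmn2r109, with 6, showed the same restriction to replicate 2 at a median MQM of 60. Vmn2r91 and Vmn2r92 had 12 and 13 SNVs in replicate 2 at a lower median MQM of 51.7 and 45.2. Of the Vmn1r genes there, Vmn1r225, Vmn1r227 and Vmn1r234 had 1 SNV each, at 0.48, 0.53 and 0.59. SNVs in the same span but outside receptor genes numbered 95 in replicate 2, with a median fraction of 0.50, against 0, 2 and 2 in replicates 1, 3 and 4. These neighbouring SNVs showed the same split of the samples. They were not used to choose the members, but lay in the same span and passed the same filters, so they are not independent support. Among them were SNVs in the formyl peptide receptor genes, another family of vomeronasal chemoreceptors, of which Fpr3 and Fpr-rs4 had 3 and 2 in replicate 2 and none in the other replicates. The 1 SNV of Fpr-rs7, at 0.48 in replicate 2, also lay in the body of Vmn2r-ps126 and so is a member. Fpr-rs3 and Fpr-rs6, in the same span, had 0 in each replicate. Thus 3 of the 5 formyl peptide receptor genes looked at held an SNV, beside 11.2% of all genes in any sample.

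The chromosome 5 cluster of 13 Vmn2r genes (chr5:108797193-109731447) held 140, 148 and 140 SNVs in replicates 1, 2 and 3, and 0 in replicate 4. All 13 genes had an SNV, and 128 of the 155 sites were confident in replicates 1, 2 and 3 together. None of the 155 positions was listed at any quality in replicate 4. Median allele fractions were 0.46, 0.48 and 0.40 in replicates 1 to 3, with the median MQM at 57.7. Vmn2r13 had 18, 19, 19 and 0 SNVs in replicates 1 to 4, at 0.48, 0.50 and 0.44 where it was called. The pseudogene Vmn2r-ps21 had 28, 31, 25 and 0, at 0.46, 0.48 and 0.40. In every one of the 13 genes replicate 4 had no SNV, while replicates 1, 2 and 3 each had at least 1. Outside receptor genes the same span held 68, 69, 57 and 0 SNVs in replicates 1 to 4.

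The chromosome 6 cluster of 44 Vmn1r genes (chr6:56923914-58504695) held 120, 122, 97 and 119 SNVs in replicates 1 to 4, in 23 genes. Replicate 3 had fewer SNVs than the others, with 23 sites confident in replicates 1, 2 and 4 only, and lower allele fractions, with medians of 1.00, 1.00, 0.35 and 1.00. In replicates 1, 2 and 4, 78.3%, 76.2% and 79.8% of the SNVs had an allele fraction of 0.65 or more, called upper-range here, against 1.03% in replicate 3. Outside receptor genes the span held 99, 98, 116 and 109 SNVs with medians of 1.00, 1.00, 0.37 and 1.00 and a median MQM of 60 in each replicate.

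Vmn1r13 (chr6:57209858-57210760) had 13 SNVs in each replicate, all at the same 13 positions. Its fractions lay between 0.994 and 1.00 in replicates 1, 2 and 4 and between 0.27 and 0.38 in replicate 3. Vmn1r15 had 6 SNVs in each replicate, at medians of 1.00, 1.00, 0.39 and 1.00 and a median MQM of 59.9. Vmn1r14, with 3 shared sites, had 1.00, 1.00, 0.35 and 1.00. Replicate 3 stood below the other 3 at every site of these 3 genes, with no overlap of the ranges. Vmn1r7 differed from them: its 13, 13, 7 and 13 SNVs had medians of 0.38, 0.39, 0.32 and 0.39, at a median MQM of 37.0. Vmn1r20 had the lowest median MQM of the receptor genes with 5 or more sites, 19.5, and 8, 8, 2 and 8 SNVs.

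The chromosome 13 cluster of 75 Vmn1r genes (chr13:22057168-23269501) held 37, 0, 28 and 51 SNVs in replicates 1 to 4. The median allele fraction was 0.41 in replicate 1, 0.31 in replicate 3 and 1.00 in replicate 4. The middle 50% of SNVs overlapped between replicate 1 (0.31 to 0.46) and replicate 3 (0.26 to 0.38), and ran from 0.75 to 1.00 in replicate 4. The median MQM of the sites was 36.9, and 83.3% of them had an MQM under 50. None of its 54 sites was listed at any quality in replicate 2. The pseudogene Vmn1r-ps93 had 7, 0, 7 and 12 SNVs, at 0.38, 0.28 and 1.00 in replicates 1, 3 and 4 and a median MQM of 35.0. Vmn1r-ps94 had 9, 0, 3 and 8, at 0.27, 0.24 and 1.00 and a median MQM of 37.8. By contrast Vmn1r-ps133 had 5 SNVs in replicate 4 alone, at 0.27 to 0.35 and a median MQM of 22.8. Outside receptor genes the span held 32, 0, 26 and 27 SNVs at medians of 0.48, 0.36 and 1.00 in replicates 1, 3 and 4.

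**Figure D2:**
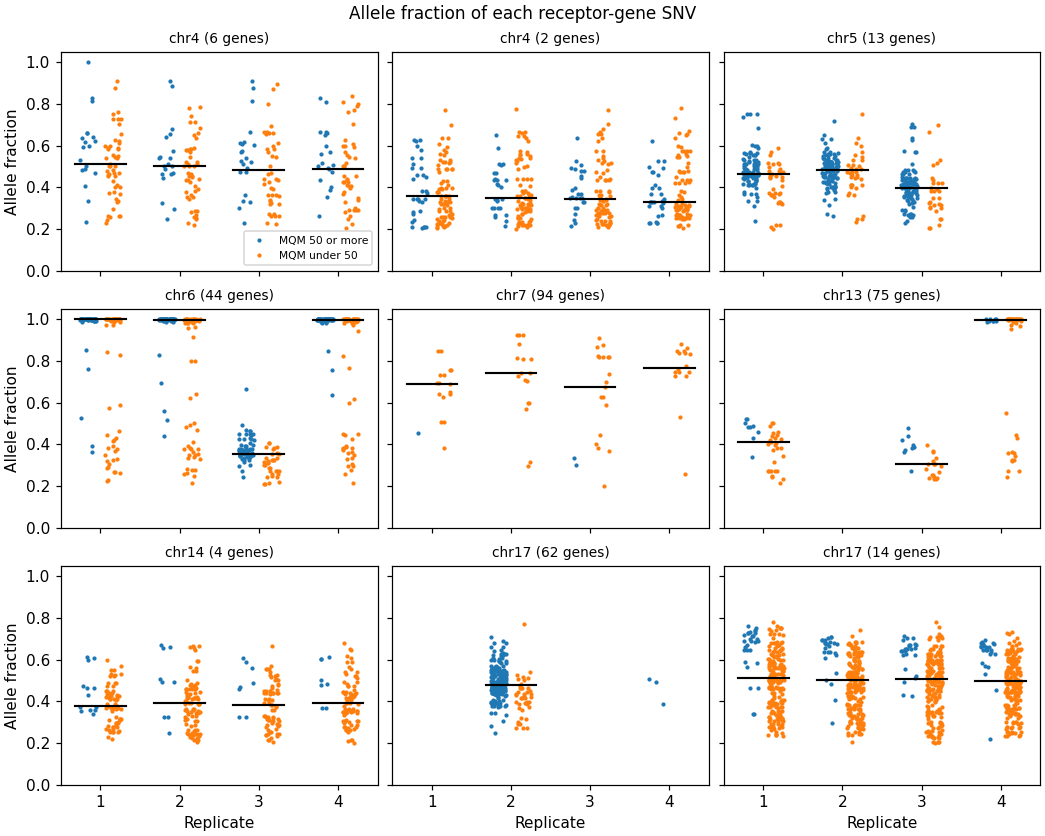
Allele fraction (vertical axis, variant reads over depth in SpeedSeq) of every receptor-gene SNV in the 9 clusters with 20 or more sites, by replicate (horizontal axis); blue points have an MQM of 50 or more, orange points an MQM under 50, and black bars are medians over at least 5 SNVs. On chromosome 6 the blue points of replicates 1, 2 and 4 lie mostly at 1.00 and those of replicate 3 around 0.35, whereas in the chromosome 17 cluster of 14 genes most points are orange and spread from 0.20 to 0.78 in each sample.

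Of the 1291 receptor SNV sites, 520 were confident in all 4 replicates, 242 in 3, 115 in 2 and 414 in 1. The 414 comprised 38, 286, 43 and 47 in replicates 1 to 4. Within a sample, the share of SNVs that were confident in all 4 was 61.9%, 48.7%, 63.2% and 72.3% for receptor genes, against 27.2%, 29.1%, 30.0% and 43.5% for other autosomal SNVs. The means were 61.5 ± 9.73% and 32.4 ± 7.48% (SD, n = 4 each), with receptor genes higher in 4 of 4 replicates by 29.1 ± 6.81 percentage points (SD). An exact two-sided sign-flip permutation test over the 4 replicates gave p = 0.125, the smallest p it can give, and 0.1875 after Benjamini-Hochberg adjustment over 6 comparisons, so no such comparison here can pass 0.05. By mapping quality, 387 of 801 receptor sites with a mean MQM under 50 (48.3%) were in all 4, against 133 of 490 sites at 50 or more (27.1%). Counted over sites, that gap was smaller without the 62-gene chromosome 17 cluster of replicate 2. The shares were then 51.0% of 759 sites under 50 and 44.8% of 297 sites at 50 or more. Within replicates 1 and 3, where that cluster held no SNV, the gap remained. Under an MQM of 30, from 30 to under 50 and at 50 or more, replicate 1 had 63.2%, 69.7% and 50.2%. Replicate 3 had 65.8%, 71.7% and 49.8%, and replicate 2, with that cluster kept, 60.5%, 64.0% and 29.0%. In replicate 4 the order was the reverse, with 59.6% under an MQM of 30, 75.6% from 30 to under 50 and 82.8% at 50 or more. Among other autosomal sites the shares were 24.1% under 50 and 16.6% at 50 or more. With only SNVs of an MQM of 50 or more in both sets, receptor genes were still higher, by 20.6 percentage points (two-sided exact sign-flip test, p = 0.125). Leaving the 62-gene cluster out of the receptor genes as well gave 26.4 points. That step could only raise the difference, since 0 sites of the cluster were confident in all 4, so it adds no support. Counted over sites and not within a sample, 40.3% of receptor SNV sites and 17.9% of other autosomal sites were in all 4. By that same count it was 8.78% of olfactory receptor (Olfr) sites, in the other large chemoreceptor family, and 28.5% of zinc finger (Zfp) sites.

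The share of SNVs with an MQM under 50 was 68.0%, 58.3%, 67.6% and 78.2% in receptor genes in replicates 1 to 4, against 19.1%, 16.6%, 13.1% and 18.1% in the rest. The means of 68.0 ± 8.10% and 16.7 ± 2.63% (SD, n = 4 each) differed by 51.3 ± 7.81 points, higher in receptor genes in 4 of 4 replicates (two-sided exact sign-flip test, p = 0.125, adjusted 0.1875). Other gene families also stood above the rest in each replicate, though below the vomeronasal receptor genes. Olfactory receptor SNVs had 31.8%, 34.7%, 33.9% and 49.4% under 50, and zinc finger SNVs 31.0%, 34.9%, 37.7% and 57.0%. Median MQM was 41.2, 44.5, 40.3 and 36.6 at receptor SNVs and 60 in each replicate elsewhere. Reference reads at the same receptor sites had medians of 58.6, 59.1, 59.1 and 57.3. At these sites the variant reads thus had lower mapping quality than the reference reads. Depth moved with it, with medians of 312.5, 243.5, 342 and 336 reads at receptor SNVs against 51, 45, 53 and 53 elsewhere. The part of depth in these differences was not tested.

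**Figure D3:**
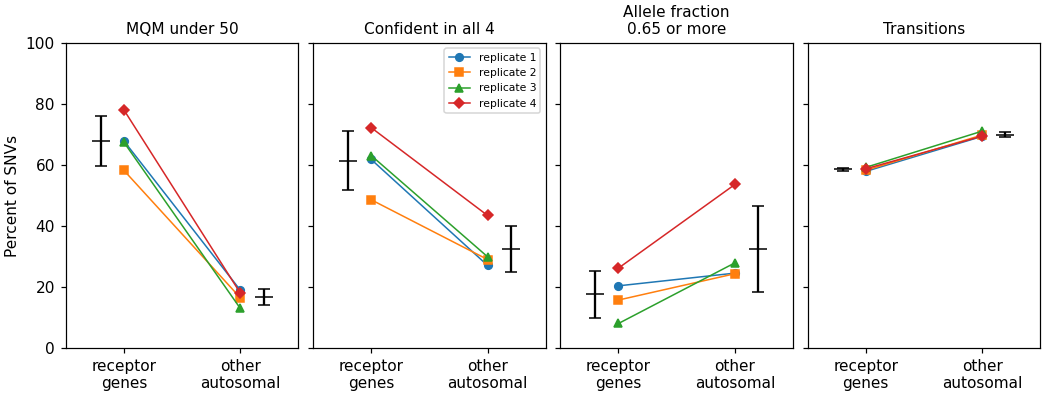
Percent of SNVs (vertical axis) with an MQM under 50, confident in all 4 replicates, with an allele fraction of 0.65 or more and that are transitions, for receptor-gene SNVs (left in each panel) and all other autosomal SNVs (right); points joined by a line are 1 replicate and black bars are mean ± SD over 4 replicates. Receptor genes lie higher in all 4 replicates in the first pair of panels and lower in all 4 in the last pair.

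Transitions, changes between the 2 purines or the 2 pyrimidines, made up 58.0%, 58.3%, 59.3% and 58.8% of receptor SNVs and 69.5%, 69.9%, 71.2% and 69.5% of the rest. The means were 58.6 ± 0.576% and 70.0 ± 0.792% (SD, n = 4 each), a difference of -11.4 ± 0.497 points with receptor genes lower in 4 of 4 replicates (two-sided exact sign-flip test, p = 0.125, adjusted 0.1875). Olfactory receptor SNVs had 72.6%, 72.8%, 71.2% and 69.8% in replicates 1 to 4, and zinc finger SNVs had 68.1%, 65.9%, 65.6% and 60.8%, which lay between the receptor genes and the rest in each replicate. Over sites, T-to-C changes (with their complement) were 26.3% of receptor SNVs against 34.6% of the rest, C-to-A 12.4% against 8.16%, T-to-A 11.9% against 6.82% and T-to-G 11.2% against 8.09%. C-to-G changes were 7.05% against 7.13%.

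Upper-range SNVs were 20.5%, 15.8%, 8.14% and 26.3% of receptor SNVs in replicates 1 to 4, against 24.6%, 24.4%, 28.0% and 53.7% of the rest. The means were 17.7 ± 7.67% and 32.7 ± 14.1% (SD, n = 4 each), a difference of -15.0 ± 10.58 points with receptor genes lower in 4 of 4 replicates (two-sided exact sign-flip test, p = 0.125, adjusted 0.1875). Among SNVs with an MQM of 50 or more the difference was -4.88 points (exact test, p = 0.625), and in that class replicate 1 had 32.3% upper-range receptor SNVs against 23.8% elsewhere. In Vmn1r genes the upper-range share was 55.2%, 64.6%, 2.60% and 68.6%, with replicate 3 far below the others. In Vmn2r genes it was 11.5%, 8.23%, 9.42% and 10.7%, close together in the 4 samples. Olfactory receptor SNVs had 1.69%, 1.23%, 14.4% and 81.4% in the upper range, and zinc finger SNVs 9.21%, 10.8%, 12.6% and 26.0%. VarScan2 listed 93.3%, 90.8%, 90.8% and 88.7% of the receptor SNVs that passed in SpeedSeq, against 94.8%, 93.6%, 96.2% and 86.7% of the rest, a difference of -1.94 ± 3.08 points (SD, n = 4) that was lower in 3 of 4 replicates (exact sign-flip permutation test, p = 0.375, adjusted 0.45).

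At the 345 receptor sites below 0.65 in all 4 replicates, the mean of the other 3 was taken from each replicate's fraction. The median difference was 0.0075, 0.0015, -0.0069 and -0.0042 in replicates 1 to 4. Of these sites, 296 had an MQM under 50, where replicate 3 had -0.0063. At the 49 with an MQM of 50 or more the medians were 0.019, -0.0095, -0.015 and -0.00088, again lowest in replicate 3. At 2162 other autosomal sites the medians were 0.0074, -0.00076, -0.016 and 0.0063. Replicate 3 stood lower among the 1059 other sites with an MQM of 50 or more, with 0.015, 0.0070, -0.039 and 0.013. Under an MQM of 50 (1103 sites) its median was -0.0040.

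**Figure D4:**
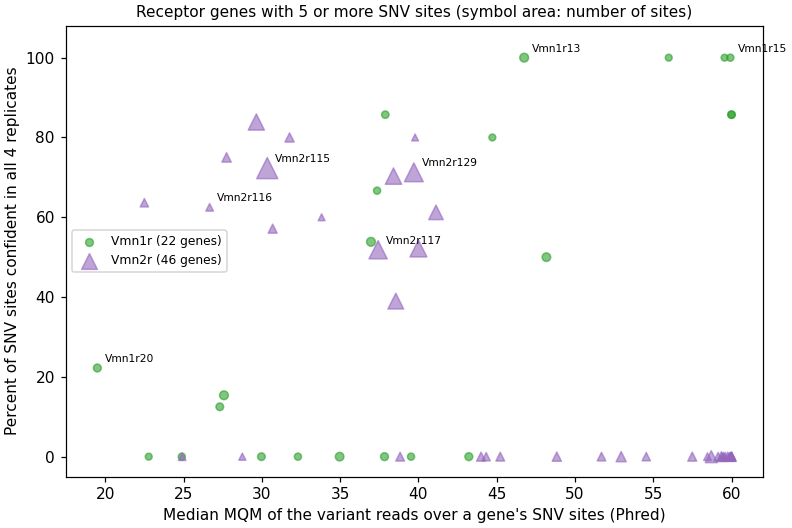
Each point is 1 of the 68 receptor genes with 5 or more SNV sites, by the median MQM of its sites (horizontal axis, Phred) and the percent of its sites confident in all 4 replicates (vertical axis), with symbol area growing with the number of sites. In 39 of the genes no site was confident in all 4, many of them Vmn2r genes near an MQM of 60, and in 4 genes, all Vmn1r, every site was.

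The 68 genes with at least 5 SNV sites comprised 22 Vmn1r and 46 Vmn2r genes. No site was confident in all 4 replicates in 8 of the Vmn1r and 31 of the Vmn2r genes. Every site was confident in all 4 in 4 Vmn1r genes, among them Vmn1r13 and Vmn1r15, and in 0 Vmn2r genes. Genes of the same cluster are not independent in these counts. The chromosome 17 cluster of 62 genes and the chromosome 5 cluster held 0 sites in all 4, and Vmn1r13 and Vmn1r15 share the chromosome 6 cluster. The same shares over all genes are not given here, so the counts are not a comparison of the families. Low-MQM sites also lay in short pseudogenes outside the larger clusters. Vmn1r-ps152 on chromosome 18 had 6, 6, 7 and 8 SNVs of 13 sites at a median MQM of 27.6, which was 18.6 sites per kb of gene body. Vmn1r-ps6 on chromosome 6 had 3, 0, 2 and 5 of 8 sites at 30.0. Vmn2r-ps109 on chromosome 13 had 5, 0, 5 and 8 of 8 sites at a median MQM of 24.9. The protein-coding Vmn1r77 lay in a chromosome 7 cluster of 94 genes with 27 sites. It had 0, 2, 7 and 1 SNVs of 9 sites at a median MQM of 43.2.

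A private SNV was one confident in 1 replicate whose position neither caller listed in the other 3. Receptor genes held 12, 243, 11 and 18 private SNVs in replicates 1 to 4, of 2553, 1039, 6433 and 247 private SNVs on the autosomes. Of the 243 in replicate 2, 232 lay in the chromosome 17 cluster of 62 genes. Replicate 3, with the most private SNVs on the autosomes, had the fewest in receptor genes. Private status depends on how much is listed in the other samples. SpeedSeq listed 179037, 126385, 69567 and 63735 entries in replicates 1 to 4, and the part of this in the private counts was not tested. Single private SNVs, both at low MQM, included Vmn1r209 on chromosome 13, at 1.00 of 22 reads in replicate 4 (MQM 28.9). Vmn2r44 on chromosome 7 had the other, at 0.45 of 240 reads in replicate 3 (MQM 31.0). Private indels in receptor genes numbered 3, 22, 1 and 0, and those on all autosomes were not counted. Indels confident in 1 replicate, whether or not listed in the others, numbered 5, 28, 1 and 0 in receptor genes. Elsewhere on the autosomes they numbered 793, 812, 1177 and 534.

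The 85 indel sites lay in 49 receptor genes and comprised 43 deletions and 42 insertions, of which 59 were of 1 base. Lengths that were a multiple of 3, which keep a coding frame where they lie in coding sequence, were 8 of 85 sites (9.41%), against 802 of 6948 other sites (11.5%). Per sample the share was 9.80%, 7.25%, 14.6% and 12.9% in receptor genes, against 11.7% to 12.9% elsewhere, a difference of -1.15 ± 3.09 points (SD, n = 4; two-sided exact sign-flip test, p = 0.5, adjusted 0.5). All 8 lay in Vmn2r genes, and 0 of 16 Vmn1r indels had such a length. Of the 85 sites 19 (22.4%) were in all 4 replicates, against 11.3% of other indel sites. No exon table was used here, so whether an indel falls in coding sequence was not determined.

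The indels printed next were chosen, after their values were seen, as 1 or 2 for each pattern of sharing, and the capitals mark the inserted or deleted bases, on the plus strand of GRCm38.
Vmn2r115 deletion, reference allele: aTCT
Vmn2r12 insertion, variant allele: aTCT
Vmn1r190-ps deletion, reference allele: gGAACCTGT
Vmn2r94 deletion, reference allele: aTTAACTG
Vmn2r-ps23 insertion, variant allele: tGTACACAGA
Vmn1r8 insertion, variant allele: aTTACTCATTC
The 3-base Vmn2r115 deletion at chr17:23359988 was in all 4 replicates, at 0.71, 0.68, 0.69 and 0.66 of 929, 811, 890 and 929 reads. The 3-base Vmn2r12 insertion at chr5:109090391 was in replicates 1, 2 and 3 at 0.51, 0.49 and 0.37, like the SNVs of its cluster. The 9-base Vmn2r-ps23 insertion at chr5:109578437 was also in replicates 1, 2 and 3, at 0.34, 0.39 and 0.34. The 8-base Vmn1r190-ps deletion at chr13:22144566 was at 0.36 in replicate 1, 0.23 in replicate 3 and 1.00 in replicate 4, the order seen for the SNVs around it. In replicate 2 alone were the 7-base Vmn2r94 deletion at chr17:18257245, at 0.33 of 117 reads, and the 10-base Vmn1r8 insertion at chr6:57036911, at 0.48 of 27 reads.

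The chromosome 6 cluster held 10 indel sites, of which 5 were confident in all 4 replicates, and at each of those 5 replicate 3 had the lowest fraction. Among them the 1-base Vmn1r20 insertion was at 0.91, 0.98, 0.34 and 0.96 in replicates 1 to 4, and the Vmn1r-ps8 deletion was at 1.00, 1.00, 0.48 and 0.97. The remaining indel sites there had other patterns. Vmn1r8 had a 1-base insertion at 0.38, 0.34 and 0.34 in replicates 1, 2 and 4, with no confident call in replicate 3, and the Vmn1r5 deletion was at 1.00, 0.97 and 0.36 in replicates 1, 2 and 3, with none in replicate 4. Outside that cluster 12 deletions of 1 base were confident in all 4 replicates. In 3 of them each fraction was 0.90 or more, namely 1 in Vmn2r-ps53 on chromosome 7, at 0.98, 0.99, 0.99 and 1.00, and 2 in Vmn2r125 on chromosome 4, which also held 2 deletions with fractions under 0.50. The other 9 had fractions between 0.26 and 0.71.

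Genes that act with these receptors were looked at as lists, beside the 11.2% of all genes and 18.5% of coding genes with an SNV in any sample. With lists this short, counts near those shares are not a result about the lists. Of 8 genes of vomeronasal signalling, 2 held a confident SNV: Ano1, a calcium-activated chloride channel, with 50, 56, 0 and 0 in replicates 1 to 4, and Gnai2, the G protein subunit of Vmn1r neurons, with 0, 0, 22 and 0. Trpc2, the transduction channel, and Gnao1, the G protein subunit of Vmn2r neurons, held none. Of 22 Mup genes, whose urinary proteins stimulate vomeronasal neurons, 7 held an SNV, and of the 15 Esp genes, whose peptides are sensed by Vmn2r neurons, and the 9 H2-Mv genes, whose products are made beside Vmn2r receptors, 0 did. Mup18 had 3, 4, 3 and 3 SNVs at a median MQM of 20.6 to 23.1, and Mup5 had 3 in each replicate at 57.8 to 60.

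VarScan2 listed no site under 20%, so the smallest member fractions were 0.20, and the rule's own minimum of 0.10 was not the effective one. Just inside this limit, 53, 49, 75 and 34 member SNVs had a fraction under 0.25 in replicates 1 to 4. Just outside the rule, 62, 117, 87 and 95 receptor SNVs passed in SpeedSeq only and 313, 336, 323 and 293 in VarScan2 only. Some member sites, 184 of the SNVs (14.3%) and 10 of the indels (11.8%), also lay in the body of another gene. Receptor genes and pseudogenes that are near-identical copies can share reads, so the gene given for a low-MQM site is uncertain.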

How the data were processed

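Exome DNA of 4 E2-KO samples was enriched with Agilent SureSelect mouse all-exon baits and, per the labels' protocols, sequenced on a BGISEQ500 as 100-base read pairs. There are 3 deposited files a sample. The deposited SpeedSeq file was made with freeBayes v0.9.21 against UCSC mm10, per the file headers, and its quality column and MQM are scores on the Phred scale. Depths, reference reads and variant reads are whole read counts, per the file headers. The deposited VarScan2 tables list other values per site (bases, coverage, frequency) for SNVs and indels. The aligner, duplicate handling and VarScan2 version were not given in the sources used here. Builds mm10 and GRCm38 are named in the submitters' processing notes. MQM depends on those unknown steps: the way an aligner places reads among close copies can change MQM, depth and allele fraction.

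Alleles were trimmed to their smallest form, substitutions of several bases were split into SNVs, and the callers were joined by position and alleles (Python 3.11.15, pandas 2.3.3, numpy 2.4.6, scipy 1.17.1). Genes were placed with the RefSeq table of GRCm38.p6, the build of mm10. Its 7 receptor entries that start before base 3000000 hold no call and were left out. Member depth was 10 reads or more; medians per sample are given in the text. Allele trimming was checked on hand-written alleles, and the sign-flip test and a difference of shares on simulated numbers. The steps that read, joined and filtered the calls were not tested on simulated calls.

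Shares in receptor genes and in other autosomal SNVs were compared by an exact two-sided sign-flip permutation test over 4 samples, adjusted by Benjamini-Hochberg over 6 comparisons. Tables across genes were used as counts beside the background over all genes. Named genes (44) were, in each family, the 6 genes with most sites, the 3 with the widest range between samples, the 3 with the lowest and the 3 with the highest MQM among genes of at least 5 sites, up to 3 a sample with a private SNV and up to 6 with an indel whose length is not a multiple of 3; other genes named were chosen after their values were seen. Alternatives changed the callers, filters, MQM, allele splitting and samples; those on unsplit alleles, on sites outside other gene bodies and without the 62-gene chromosome 17 cluster were added after seeing the data. Members and lists were chosen with earlier results of these data known.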

Additional observations from a re-analysis of the deposited data

Results flagged for a closer look

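Of 48 quantities examined over the 4 replicates, 6 had 1 replicate standing apart from the others by Dixon's criterion, which chance meets in about 1 in 20 groups. The chromosome 17 cluster of 62 genes had 235 SNVs in replicate 2 against 0 to 3 in the others. The chromosome 5 cluster of 13 genes had 0 SNVs in replicate 4 against 140 to 148. The chromosome 6 cluster of 44 genes had 97 SNVs in replicate 3 against 119 to 122, and a median allele fraction of 0.354 there against 0.997 to 1.00. The median allele fraction of upper-range receptor SNVs was 0.695 in replicate 3 against 0.983 to 0.996, and for Vmn1r genes alone 0.665 against 1.00. In replicate 3 only 2.60% of 154 Vmn1r SNVs were upper-range. The quantities overlap, since the chromosome 6 cluster is part of the Vmn1r genes and those are part of the receptor genes. They are therefore not separate groups to set against the 1 in 20 rate. SpeedSeq also listed 18 alleles in receptor genes in which bases were both replaced and inserted or deleted (5, 7, 3 and 3 in replicates 1 to 4), which fall outside the SNVs and indels counted here.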

How the results depend on the processing

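Receptor SNVs averaged 862.5 per sample, but 284.5 with an MQM of at least 50 and 149.75 with calls within 100 bp of another left out. Receptor indels averaged 49.75, but 75.75 from VarScan2 alone and 29.75 with an MQM of at least 50. The MQM filter moved 28 of the 44 named genes' site counts, and leaving out close calls moved 33. The 6 comparisons of shares kept their direction under each alternative run, though the upper-range difference of -15.0 points was -4.88 at an MQM of at least 50, and the difference in low MQM of 51.3 points was 18.7 when low meant under 30. Leaving out replicate 2 took the genes with an SNV to 77 of 114. Leaving out 1 replicate at a time put the means between 794 and 910 SNVs and between 43.3 and 56 indels. Depth at positions without a call is unknown, which limits every absence reported. No paired analysis was possible because there is only 1 group, so no groups share replicate numbers; receptor and other SNVs were compared within each sample.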
